A study of Mus musculus with 2 samples.

Results

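The collagen genes of mouse embryonic fibroblasts (MEFs) were examined by the methylation of the CpGs at their starts and in their bodies. The set comprised 38 collagen genes, chosen by gene name with earlier results of these data known, of 22367 protein-coding genes in the GENCODE vM1 annotation. Single-CpG methylation came from reduced-representation bisulfite sequencing (RRBS), in which a cytosine still read as cytosine after bisulfite treatment is counted as methylated. The 2 genotypes, labelled Dnmt1+/+ and Dnmt1-/-, were compared with 1 library each. In the Dnmt1-/- MEFs both copies of Dnmt1, which encodes the maintenance DNA methyltransferase, carry a hypomorphic allele, so residual enzyme activity is possible, and the MEFs of both genotypes lack trp53. Because no genotype had a replicate library, every difference below is a difference between 2 libraries, and all errors cover counting only.

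Collagens are trimeric matrix proteins with a long triple helix. Type I, III and V collagens form the fibrils that fibroblasts secrete, whereas type II, IX, X and XI collagens belong to cartilage, and type VII and XVII collagens anchor epithelia to the underlying matrix. CpG methylation at a CpG-rich gene start usually goes with silence of the gene, and most CpGs within gene bodies are methylated in somatic cells.

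The 38 genes were grouped into 6 fibrillar collagens of fibroblast matrix, 8 cartilage collagens, 4 epithelial collagens, 12 other matrix collagens (basement membrane, beaded filament and fibril-associated types) and 8 collagens with restricted expression. A promoter was defined as the sequence within 1 kb of the annotated gene start and the body as the rest of the gene. The median depth was 29 calls per CpG in Dnmt1+/+ and 30 in Dnmt1-/- MEFs, from 74636195 and 78401157 calls in all. CpGs inside CCGG or TCGA, the cutting sites of enzymes used in such libraries, were set apart because they read high even beside unmethylated CpGs. At collagen promoters these enzyme-site CpGs averaged 56.6% in Dnmt1+/+ and 53.2% in Dnmt1-/- MEFs. All values below are therefore from the remaining CpGs, 573 in collagen promoters and 1494 in collagen bodies, unless stated.

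Sequences from 6 of the promoters and 2 of the bodies described further on are shown first, on the strand of the gene and in the NCBIM37 (mm9) build, with measured CpGs outside CCGG and TCGA as capitals. CpGs in lower case were either not measured or lie within an enzyme site. The Col5a3 stretch, at chr9:20619482-20619781 on the minus strand, spans the gene start and holds 10 measured CpGs that averaged 4.38% in Dnmt1+/+ and 10.8% in Dnmt1-/- MEFs.
Col5a3 start: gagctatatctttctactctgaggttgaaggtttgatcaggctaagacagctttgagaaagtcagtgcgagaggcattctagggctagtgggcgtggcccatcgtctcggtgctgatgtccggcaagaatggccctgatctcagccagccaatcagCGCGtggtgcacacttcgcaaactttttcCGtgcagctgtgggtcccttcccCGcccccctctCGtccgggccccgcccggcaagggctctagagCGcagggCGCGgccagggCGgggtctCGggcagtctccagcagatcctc
The Col1a2 stretch, at chr6:4454397-4454696 on the plus strand, lies upstream of the annotated start, and its 3 measured CpGs averaged 83.3% and 11.6%.
Col1a2 upstream: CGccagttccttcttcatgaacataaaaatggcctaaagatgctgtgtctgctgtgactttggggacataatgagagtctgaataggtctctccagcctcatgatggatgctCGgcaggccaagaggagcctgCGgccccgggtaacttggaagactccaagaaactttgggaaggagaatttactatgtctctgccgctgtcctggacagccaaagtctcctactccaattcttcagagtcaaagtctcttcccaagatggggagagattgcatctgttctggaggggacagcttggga
The Col11a2 stretch, at chr17:34175448-34175747 on the plus strand, holds 7 measured CpGs, averaging 59.1% and 32.5%.
Col11a2 upstream: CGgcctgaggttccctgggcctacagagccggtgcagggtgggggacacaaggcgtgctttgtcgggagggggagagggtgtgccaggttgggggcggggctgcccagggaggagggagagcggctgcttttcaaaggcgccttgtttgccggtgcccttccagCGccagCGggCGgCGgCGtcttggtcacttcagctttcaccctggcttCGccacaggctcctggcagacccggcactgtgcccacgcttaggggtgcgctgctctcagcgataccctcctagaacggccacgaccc
The Col7a1 stretch, at chr9:108855653-108855952 on the plus strand, begins 22 bases inside the gene, and its 9 measured CpGs averaged 26.5% and 10.5%.
Col7a1 inside: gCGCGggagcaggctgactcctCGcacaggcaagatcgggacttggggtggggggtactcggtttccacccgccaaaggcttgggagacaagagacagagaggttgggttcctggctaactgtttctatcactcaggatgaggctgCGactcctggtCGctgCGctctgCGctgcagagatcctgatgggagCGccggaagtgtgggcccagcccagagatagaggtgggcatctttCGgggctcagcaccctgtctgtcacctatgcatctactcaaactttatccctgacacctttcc
The Col8a2 stretch, at chr4:125964153-125964452 on the plus strand, runs from 116 to 415 bases inside the gene and holds 15 measured CpGs, averaging 40.4% and 8.18%.
Col8a2 inside: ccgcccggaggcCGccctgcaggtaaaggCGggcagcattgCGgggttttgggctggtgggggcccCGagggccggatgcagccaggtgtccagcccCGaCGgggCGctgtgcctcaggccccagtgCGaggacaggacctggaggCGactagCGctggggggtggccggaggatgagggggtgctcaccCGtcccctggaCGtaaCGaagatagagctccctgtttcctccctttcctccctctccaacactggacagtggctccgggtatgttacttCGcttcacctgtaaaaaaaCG
The Col4a1 stretch, at chr8:11312330-11312629 on the minus strand and from 197 to 496 bases inside the gene, is shown as an example of a collagen promoter that was unmethylated in both libraries, with 10 measured CpGs at 0.563% and 0.871%.
Col4a1 inside: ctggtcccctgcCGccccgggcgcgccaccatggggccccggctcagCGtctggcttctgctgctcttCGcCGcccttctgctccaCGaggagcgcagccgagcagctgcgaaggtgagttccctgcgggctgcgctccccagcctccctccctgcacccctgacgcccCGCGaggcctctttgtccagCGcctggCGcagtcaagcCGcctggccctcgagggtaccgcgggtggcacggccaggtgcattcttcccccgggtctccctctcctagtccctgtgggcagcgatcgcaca

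The 2 stretches from gene bodies come from Col1a1 and Col6a2, which retained the least and the most among bodies with at least 20 CpGs. The Col1a1 stretch, at chr11:94812372-94812571 on the plus strand, holds 9 measured CpGs that averaged 94.6% in Dnmt1+/+ and 6.84% in Dnmt1-/- MEFs.
Col1a1 body: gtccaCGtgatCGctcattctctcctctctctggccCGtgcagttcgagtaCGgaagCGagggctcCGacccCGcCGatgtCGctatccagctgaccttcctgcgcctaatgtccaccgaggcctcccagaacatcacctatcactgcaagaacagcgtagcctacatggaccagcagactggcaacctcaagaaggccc
The Col6a2 stretch, at chr10:76066411-76066610 on the minus strand, also holds 9 measured CpGs, averaging 97.97% and 43.3%, the latter below the 55.7% of the whole Col6a2 body.
Col6a2 body: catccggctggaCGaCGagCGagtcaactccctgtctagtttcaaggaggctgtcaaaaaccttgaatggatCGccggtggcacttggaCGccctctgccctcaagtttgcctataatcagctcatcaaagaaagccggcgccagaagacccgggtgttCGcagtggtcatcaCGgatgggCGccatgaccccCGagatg
The Dnmt1+/+ levels of these stretches were close, while their Dnmt1-/- levels were not.

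Most collagen promoters, like those of most genes, were lowly methylated in Dnmt1+/+ MEFs. Of the 24 genes with at least 5 promoter CpGs, 19 (79.2%) averaged 20% or less in Dnmt1+/+ MEFs, against 88.4% of the promoters of all genes. In 8 of the 24 (33.3%) the mean was lower in Dnmt1-/- MEFs by at least 10 percentage points, against 14.6% of the 12837 promoters of all protein-coding genes with as many CpGs. None of the 24 was higher by that much, where the figure for all genes was 0.647%. Since Col4a1 and Col4a2 share a start region, as do Col4a3 and Col4a4, these 24 genes represent 22 separate windows, of which 7 (31.8%) were lower. Within 500 bp of the start 4 of 20 genes (20%) were lower by 10 points, against 9.59% of all genes, and Col4a3 and Col4a4 count there as 2 genes. With enzyme-site CpGs included 6 of 27 (22.2%) were lower, against 18.7% of all genes. In the full window 3 of the 24 were lower by at least 25 points, a limit for which no share over all genes is given here. The median collagen promoter stood at 6.001% in Dnmt1+/+ and 3.96% in Dnmt1-/- MEFs, and the median of all genes at 2.66% and 1.21%.

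**Figure D1:**
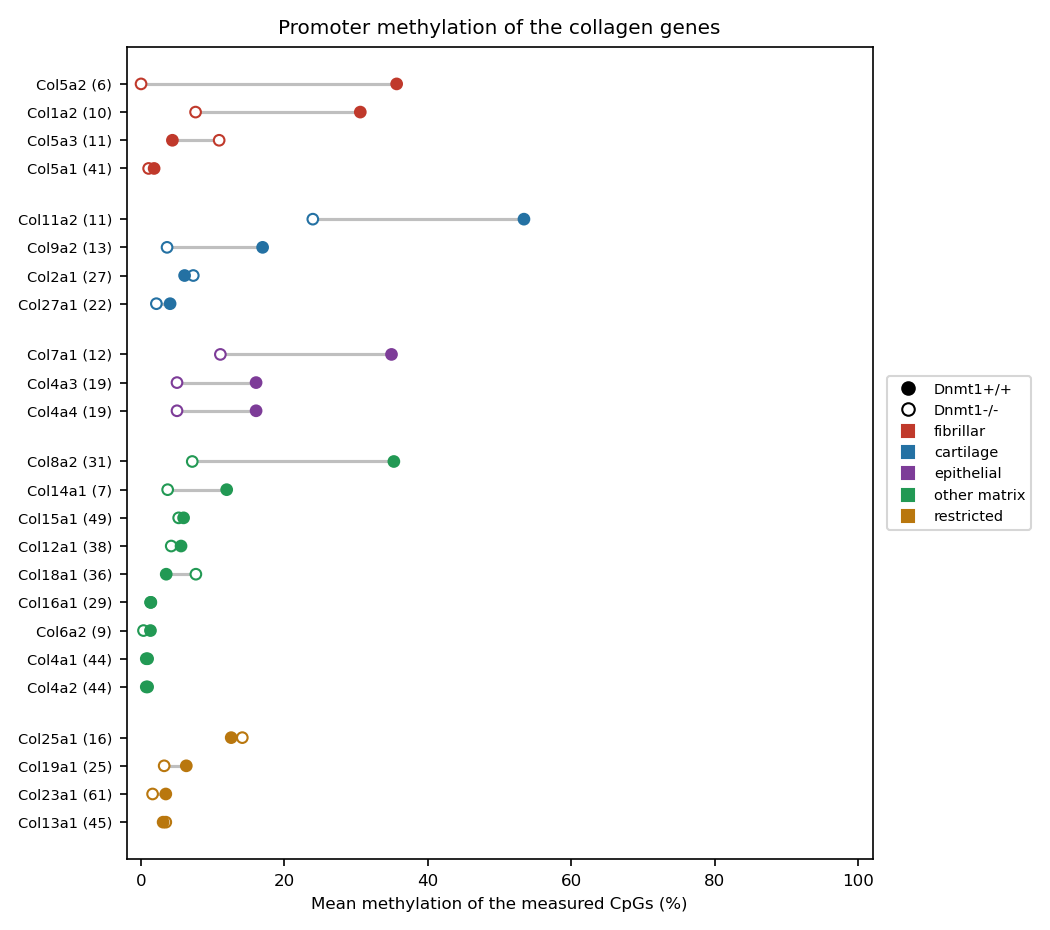
Mean promoter methylation (%, horizontal axis) of the 24 collagen genes with at least 5 measured CpGs, by class, with the number of CpGs in brackets. Filled points are Dnmt1+/+ and open points Dnmt1-/- MEFs, 1 library each; 8 genes lie at least 10 points lower in Dnmt1-/- MEFs, led by Col5a2 (35.6% and 0%), and Col5a3 is the one furthest in the other direction (4.37% and 10.9%).

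Each CpG was tested for unequal numbers of methylated calls by Fisher's exact test, adjusted over every CpG of the table, and a call therefore speaks of the libraries and not of the genotypes. Of the 573 collagen promoter CpGs, 57 (9.95%) were called lower in Dnmt1-/- MEFs, where 7.11% of the promoter CpGs of all genes were. The number called higher was 7 (1.22%), against 0.621% over all genes. When each CpG was thinned to 10 calls, 7 were called lower and 0 higher, so depth set these counts. The lower calls made up 21.5% of the 79 CpGs in cartilage collagen promoters, 19.4% of 31 in epithelial, 10.1% of 69 in fibrillar, 9.31% of 247 in other matrix and 2.72% of 147 in restricted collagen promoters.

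By class, the median promoter level was 17.5% in Dnmt1+/+ and 4.33% in Dnmt1-/- MEFs over 4 fibrillar genes, and 16.04% and 5.01% over 7 cartilage and epithelial genes. The latter 2 values are those of the window that Col4a3 and Col4a4 share, which counts as 2 genes. In all, 2 of the 4 fibrillar and 5 of the 7 other promoters (4 of 6 separate windows) were lower by at least 10 points, beside the 14.6% of all promoters. With so few genes a class, and no replicate libraries, these class values are descriptions with no test. Within 500 bp of the start, where Col1a2, Col5a2 and Col11a2 had too few CpGs to enter, the fibrillar medians were 3.17% and 5.82%, and the cartilage and epithelial medians 14.2% and 5.01%.

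Among the fibrillar collagens, Col1a2, which encodes the alpha 2 chain of type I collagen, had a divided promoter. Its 3 upstream CpGs, 417 to 284 bases before the start, gave 26 of 26, 16 of 26 and 23 of 26 methylated calls in Dnmt1+/+ MEFs. The same CpGs gave 2 of 23, 2 of 23 and 4 of 23 methylated calls in Dnmt1-/- MEFs, and all 3 were called lower. The 7 CpGs from 555 to 895 bases inside the gene lay at 25% or less in both libraries, and none was called. Over the 10 CpGs the mean was 30.6% in Dnmt1+/+ and 7.60% in Dnmt1-/- MEFs, so that this mean blends a methylated and an unmethylated stretch. The difference of -22.97 points became -40.9 at a depth of at least 20 and -13.3 with enzyme-site CpGs included. With calls pooled, the levels were 32.5% (95% Wilson interval 26.8 to 38.7%) and 7.72% (5.05 to 11.6%).

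Col5a2, which encodes the alpha 2 chain of type V collagen, a regulator of fibril diameter, had no methylated call left at its promoter in Dnmt1-/- MEFs. Its 3 CpGs between 261 and 293 bases inside the gene each had 20 or 21 of 38 methylated calls in Dnmt1+/+ MEFs, and each had 0 of 26 in Dnmt1-/- MEFs. The 3 CpGs further in had 5 of 16, 0 of 72 and 14 of 72 methylated calls in Dnmt1+/+ MEFs. The Dnmt1-/- library gave 0 methylated calls of 258 over the 6 CpGs, which allows up to 1.16% (3 calls), against a pooled 29.6% (24.5 to 35.2%) in Dnmt1+/+ MEFs. In all, 4 of the 6 CpGs were called lower, and neighbouring CpGs with the same depth share reads.

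Col5a3, which encodes the alpha 3 chain of type V collagen, differed in the opposite direction by a small amount. The lowest and highest of its 11 CpGs were 2.17% and 6.52% in Dnmt1+/+ MEFs, and 3.77% and 19.1% in Dnmt1-/- MEFs, so the ranges overlapped. Pooled calls gave 4.12% (3.03 to 5.58%) of 947 calls and 11.8% (10.04 to 13.9%) of 1082 calls. Of the 5 CpGs within 18 bases of the start 4 were called higher, at 3.85%, 2.56%, 3.20% and 5.13% in Dnmt1+/+ and 11.2%, 12.4%, 17.5% and 19.1% in Dnmt1-/- MEFs, with adjusted p-values from Fisher's exact test of 0.0324, 0.00259, 0.000731 and 0.0224. The CpG at the start itself, at 5.16% and 10.3%, was not called. The bisulfite conversion rate was not given in the sources used here, so values near 0 could not be corrected for unconverted cytosines. In rank, the difference of 6.52 points was higher than that of 99.0% of all promoters compared. All 5 are in the Col5a3 sequence shown above, in the run of capitals towards its 3′ end.

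Col5a1, the major type V chain, was unmethylated at its promoter, with 41 CpGs averaging 1.82% in Dnmt1+/+ and 1.06% in Dnmt1-/- MEFs. The promoters of Col1a1 and Col3a1, the type I alpha 1 chain and the sole type III chain, could not be described in the same way. Col1a1 had a single CpG outside the enzyme sites, with 0 of 26 and 0 of 16 methylated calls, which allow up to 11.5% and 18.8%. Col3a1 had no measured promoter CpG.

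**Figure D2:**
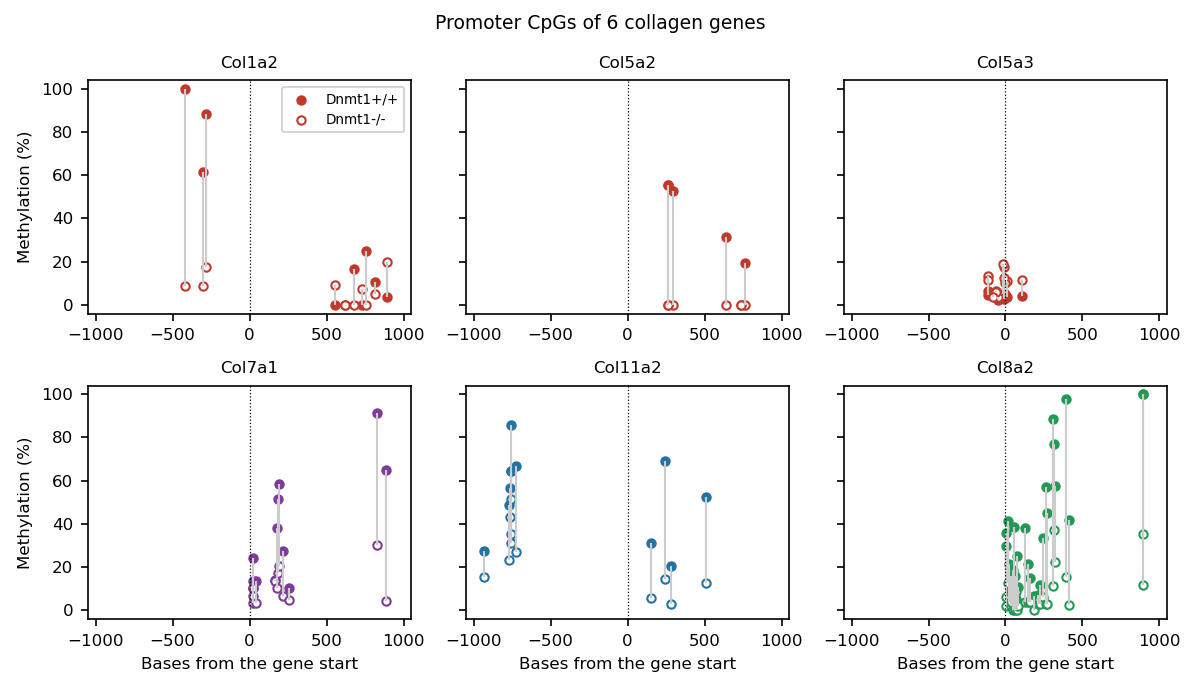
Methylation (%, vertical axis) of each measured promoter CpG against its distance from the gene start in bases, for 6 collagen genes. Filled points are Dnmt1+/+ and open points Dnmt1-/- MEFs, joined for the same CpG; the methylated CpGs of Col1a2 are the 3 upstream ones, and the CpGs of Col5a3 stay at 19.1% or less in both libraries.

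Of the cartilage collagens, Col11a2, which encodes the alpha 2 chain of type XI collagen, had the most methylated promoter of the 24 genes. Its 11 CpGs averaged 53.4% in Dnmt1+/+ and 24.0% in Dnmt1-/- MEFs, and 8 of them were called lower. The CpGs at positions -770 to -722 from the start kept 23.3% to 51.7% in Dnmt1-/- MEFs, which exceeded the 3.03% to 14.7% kept by the 4 CpGs inside the gene. Col9a2, a type IX chain that coats cartilage fibrils, averaged 17.0% and 3.63% over 13 CpGs, with 5 called lower. Its difference of -13.3 points became -9.20 at a depth of at least 20 and -7.43 within 500 bp of the start, inside the 10-point limit. Col2a1, the main cartilage collagen, and Col27a1, a fibrillar collagen of cartilage, were low in both libraries, at 6.07% and 7.28% over 27 CpGs and at 4.05% and 2.14% over 22 CpGs. The cartilage promoters with under 5 CpGs were Col9a1 (1 CpG, 96.7% and 5%), Col9a3 (2 CpGs), Col11a1 (3 CpGs) and Col10a1 (0 CpGs). The single Col9a1 CpG lay 911 bases upstream and was called lower.

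The 3 epithelial collagens with enough promoter CpGs, 2 of which share a window, were lower by at least 10 points, as were 14.6% of all promoters. Col7a1, the anchoring fibril collagen of skin, averaged 34.9% in Dnmt1+/+ and 11.1% in Dnmt1-/- MEFs over 12 CpGs. In Dnmt1+/+ MEFs its CpGs within 44 bases of the start lay between 10.3% and 24.1% and the CpG at 830 bases at 91.5%, and 4 CpGs were called lower. Col4a3 and Col4a4, basement membrane chains of the kidney glomerulus that are transcribed away from each other, shared 19 CpGs that averaged 16.04% and 5.01%. With enzyme-site CpGs included their difference of -11.03 points became -8.41, inside the 10-point limit. Just 2 of those CpGs, 310 and 345 bases inside Col4a3, were called lower. Col17a1, the hemidesmosome collagen, had no measured promoter CpG.

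The other matrix collagens were mostly unmethylated at their starts. Col8a2, a short-chain collagen of the corneal endothelium, was the exception, with 31 CpGs averaging 35.3% in Dnmt1+/+ and 7.14% in Dnmt1-/- MEFs and 22 called lower. Its CpGs within 269 bases of the start lay between 4% and 57.1% in Dnmt1+/+ MEFs, and those at 891 and 893 bases at 100%. At the shared start of Col4a1 and Col4a2, which encode the ubiquitous basement membrane chains, 44 CpGs averaged 0.729% and 0.916%, and none exceeded 7.69%. Col14a1, a fibril-associated collagen, averaged 11.9% and 3.71% over 7 CpGs, within the 10-point limit. The other 5 with enough CpGs, Col6a2, Col12a1, Col15a1, Col16a1 and Col18a1, lay between 1.31% and 5.93% in Dnmt1+/+ MEFs and between 0.339% and 7.64% in Dnmt1-/- MEFs. Fewer than 5 CpGs were measured for Col8a1 (4 CpGs, 9.21% and 2.34%), Col6a1 (0 outside enzyme sites) and Col6a3 (0 measured).

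No restricted collagen promoter was lower by 10 points. Col13a1, a transmembrane collagen, Col19a1, Col23a1 and Col25a1 had 16 to 61 CpGs and lay between 3.08% and 12.6% in Dnmt1+/+ MEFs and between 1.61% and 14.1% in Dnmt1-/- MEFs. Promoters of Col20a1, Col22a1, Col24a1 and Col28a1 had no measured CpG. In addition, 3 single CpGs outside Col5a3 were called higher, in Col15a1 60 bases upstream (0 of 15 and 6 of 15 methylated calls), in Col18a1 823 bases inside the gene (0 of 34 and 4 of 20) and in Col13a1 656 bases inside (4 of 90 and 18 of 74). Their neighbours were not called higher. The Col18a1 promoter as a whole was higher in Dnmt1-/- MEFs, by less than 10 points, at 3.51% and 7.64% over 36 CpGs. Pooled calls gave 3.03% (2.27 to 4.05%) and 7.10% (5.74 to 8.77%), and the difference lay at the 98.5th percentile of all promoters. The Col18a1 promoter difference of 4.13 points was -39.04 points at the start of its transcript with the longest coding sequence.

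The unmeasured collagen promoters were poor in CpGs. The 8 promoters with no measured CpG hold 4 to 41 CpGs in the genome sequence (median 24), and the 24 with at least 5 measured hold 28 to 154 (median 84.5). Promoters of Col3a1 and Col28a1, with 10 and 4 CpGs, are among the poorest. In the 250 bases before to 50 bases after the start, GGGCGG, read on both strands, occurs in 19 of the 38 collagen genes and in 43.4% of all 22367 protein-coding genes. The CCAAT letters occur in 42.1% of the collagen genes and 37.9% of all genes. A TATAAA run occurs in 15.8% and 13.4%. These matches are letters of the sequence and were not tested as binding sites, and single promoters can hold more than 1 of them.

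By distance from the start, collagen methylation formed a trough in both libraries. In the 250 bases upstream of the start, 125 CpGs of 16 genes averaged 2.86% in Dnmt1+/+ and 2.54% in Dnmt1-/- MEFs, and none was called lower. At 250 to 500 bases inside the gene, 130 CpGs averaged 10.3% and 3.89%. From 2000 to 5000 bases upstream, 52 CpGs averaged 85.0% and 31.3%, and 43 of them were called lower. No values over all genes are given for these distances, so whether the trough or this count is particular to collagens was not tested.

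Most collagen bodies were highly methylated in Dnmt1+/+ MEFs, with 26 of 34 at 80% or more, against 7197 of 11837 bodies of all genes. Col8a2 was the lowest, at 31.75% in Dnmt1+/+ and 7.75% in Dnmt1-/- MEFs over 70 CpGs. All 34 genes with at least 5 body CpGs were lower by at least 10 points, where 93% of all genes with as many CpGs were. Of the 1494 body CpGs, 1172 (78.5%) were called lower, against 62.6% of the body CpGs of all genes, and the collagen CpGs started higher, at a mean of 81.1% in Dnmt1+/+ MEFs against 67.0%. None was called higher, where 0.849% were over all genes. Fisher's exact test gave 1 such CpG at an unadjusted p under 0.05, of 22 with a higher value in Dnmt1-/- MEFs. The share of the Dnmt1+/+ mean that was retained in Dnmt1-/- MEFs had a median of 35.9% over the 34 bodies and 37.0% over 11837 bodies of all genes. With enzyme-site CpGs included the collagen median was 54.3%.

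**Figure D3:**
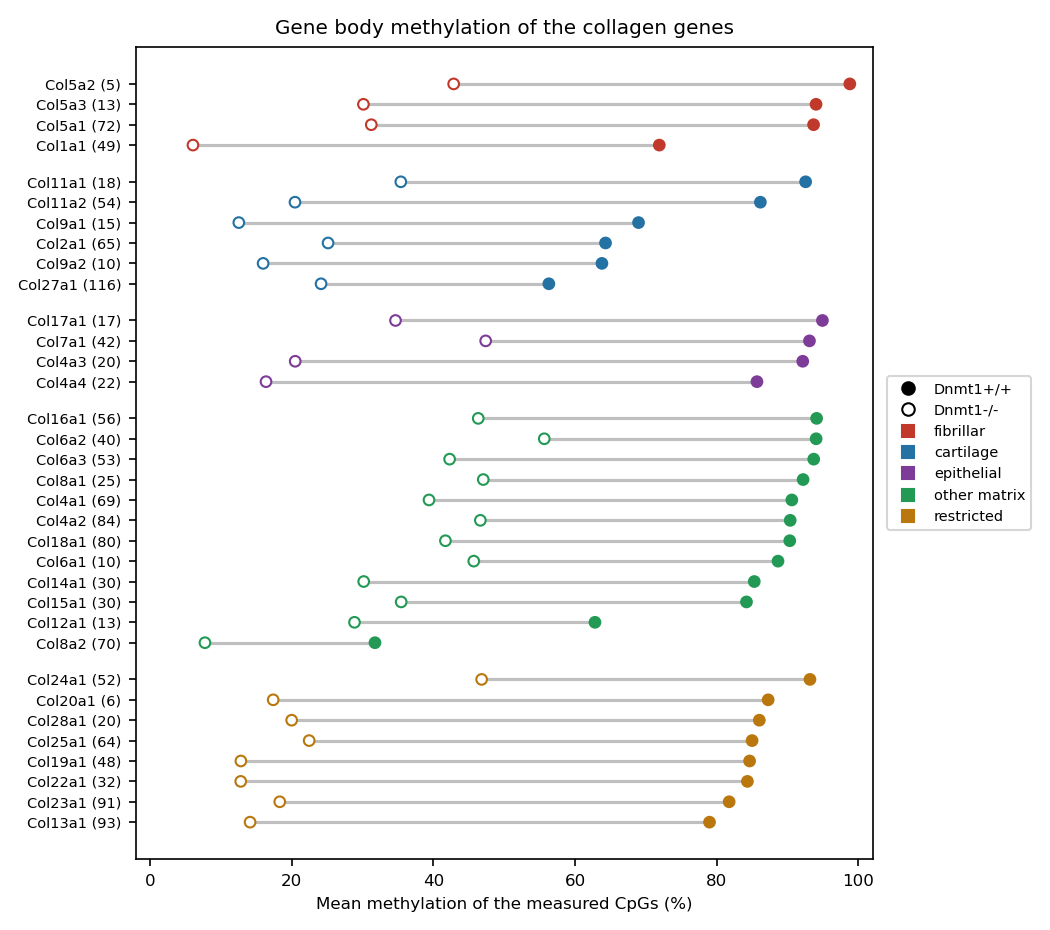
Mean gene body methylation (%, horizontal axis) of the 34 collagen genes with at least 5 measured CpGs, by class, with the number of CpGs in brackets. Filled points are Dnmt1+/+ and open points Dnmt1-/- MEFs, 1 library each. Every gene is lower in Dnmt1-/- MEFs, and 7 of the 8 restricted collagens, all but Col24a1, lie at 22.5% or less there. The highest of these, Col25a1, is at the 42.1st percentile of all bodies in Dnmt1-/- MEFs, and some genes of other classes lie as low.

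The median share of body methylation retained ran from 21.2% to 46.1% across the classes. In order, the median retained share was 46.1% over 12 other matrix collagens, 32.7% over 4 fibrillar, 31.6% over 6 cartilage, 29.4% over 4 epithelial and 21.2% over 8 restricted collagens. In all, 10 of the 12 other matrix genes retained 40% or more, and 7 of the 8 restricted genes retained under 30%. Over all protein-coding genes with a body value, 43.9% retained 40% or more and 36.2% retained under 30%. With enzyme-site CpGs included, the other matrix and restricted medians were 59.1% and 47.5%. In Dnmt1+/+ MEFs the other matrix and restricted medians were 90.3% and 84.8%. As the classes hold few genes and each value comes from 1 pair of libraries, no test was made between them.

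Other matrix and restricted collagens also stood at the upper and lower ends among CpGs that began at 80% or more, while the classes between them ran in another order. Body CpGs at 80% or more in Dnmt1+/+ MEFs numbered 439 in other matrix collagens and had a median of 46.2% in Dnmt1-/- MEFs (quartiles 26.2% and 66.7%). In restricted collagens 304 such CpGs had a median of 17.3% (6.25% and 42.2%). CpGs at 20% or less in Dnmt1-/- MEFs made up 18.2% of the former and 55.6% of the latter, and 34.5% of the 202245 such body CpGs of all genes. The fibrillar, cartilage and epithelial medians were 21.9%, 31.6% and 34.0%, with 33.3% over all genes. CpGs of a gene are not independent replicates, and the quartiles overlap.

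**Figure D4:**
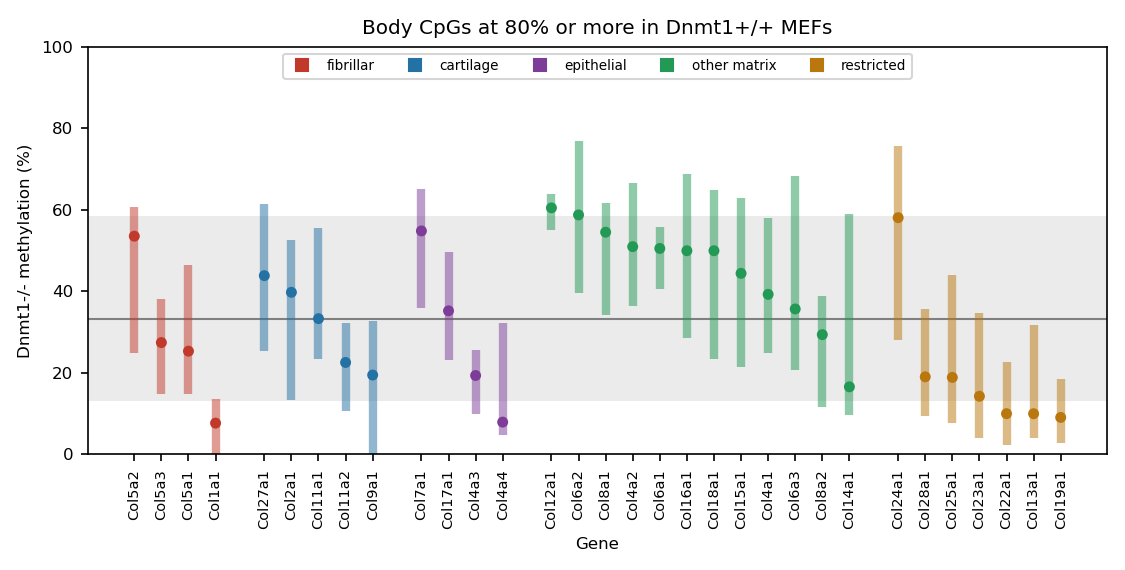
Dnmt1-/- methylation (%, vertical axis) of body CpGs that were at 80% or more in Dnmt1+/+ MEFs, for each collagen gene with at least 5 of them. Points are medians and bars quartiles over CpGs, coloured by class; the grey line and band are the median (33.3%) and quartiles (13.3% and 58.3%) of all protein-coding genes, and Col1a1 has a median of 7.69%.

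Col1a1, the most abundant collagen of fibroblasts, retained the least of the 25 collagen bodies with at least 20 CpGs. Its 49 CpGs averaged 71.9% in Dnmt1+/+ and 6.06% in Dnmt1-/- MEFs, so that 8.42% was retained, and 41 were called lower. With its 32 enzyme-site CpGs included, 32.05% was retained. Pooled calls gave 76.1% (73.7 to 78.4%) and 5.99% (4.86 to 7.36%). Col1a1 thus lay at the 4.75th percentile of all bodies. Of its 28 CpGs at 80% or more in Dnmt1+/+ MEFs, 24 were at 20% or less in Dnmt1-/- MEFs and the highest stood at 30.8%. The difference was present in exons (79.2% and 6.17%, 35 CpGs) and in introns (53.6% and 5.77%, 14 CpGs).

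Along Col1a1, Dnmt1+/+ methylation was low near the start and high towards the end of the gene. The 1 kb tile at chr11:94799001-94800000, about 2 kb inside, had 6 CpGs averaging 11.8% in Dnmt1+/+ and 1.39% in Dnmt1-/- MEFs. The tile at chr11:94812001-94813000, which covers 3′ exons, had 17 CpGs averaging 95.1% and 8.66%, and all 17 were called lower. The annotation places another gene, Gm17329, over this end of Col1a1. The sequence within 50 kb on either side of Col1a1, promoters left out, averaged 37.3% and 9.09% over 82 CpGs, a retained share of 24.4%.

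Col6a2, a chain of the beaded filament collagen VI, retained the most of the same 25. Its 40 body CpGs averaged 94.0% in Dnmt1+/+ and 55.7% in Dnmt1-/- MEFs, so that 59.2% was retained, with pooled levels of 95.4% (94.1 to 96.4%) and 56.1% (53.2 to 58.8%). The tile at chr10:76077001-76078000 had 9 CpGs averaging 98.8% and 72.4%, and of the 36 CpGs at 80% or more in Dnmt1+/+ MEFs, 9 stayed at 80% or more, where 11.4% of such CpGs did in other matrix collagens and 8.48% in all genes. Sequence within 50 kb of Col6a2 retained 33.2% over 56 CpGs, less than the gene itself.

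**Figure D5:**
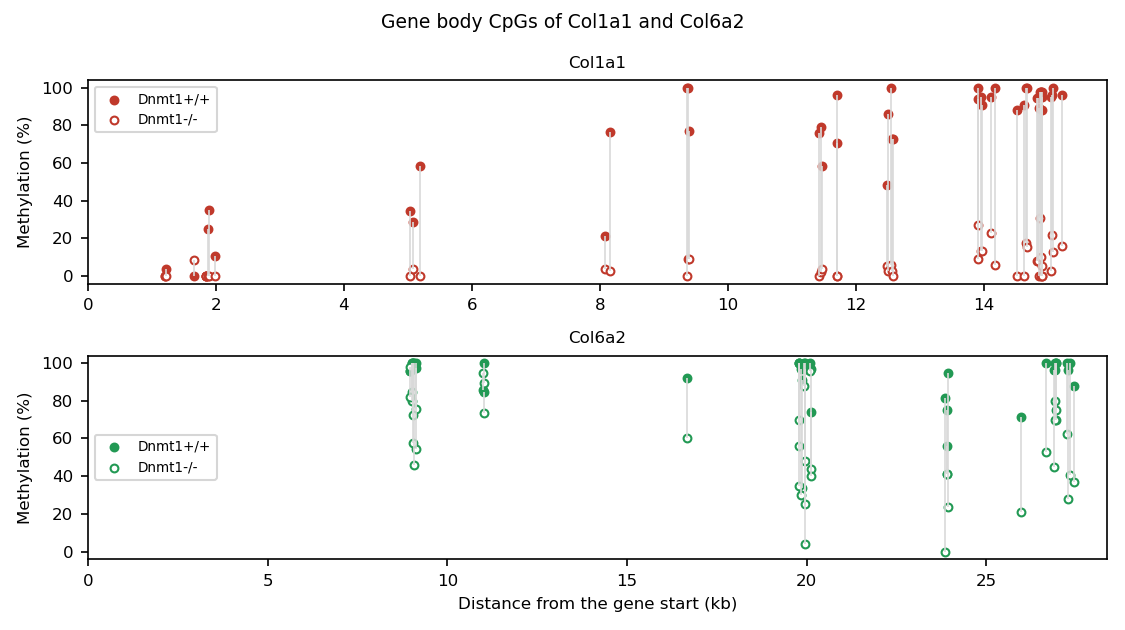
Methylation (%, vertical axis) of each body CpG against distance from the gene start in kb, for Col1a1 and Col6a2. Filled points are Dnmt1+/+ and open points Dnmt1-/- MEFs, joined for the same CpG; the open points of Col1a1 stay at 30.8% or less along the gene, while those of Col6a2 range from 0% to 98%.

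Among bodies with at least 20 CpGs, the next genes at the upper end were Col4a2, with 51.6% retained (90.4% and 46.6%, 84 CpGs), and Col8a1, an endothelial and vascular wall collagen, with 51.0% (92.2% and 47.0%, 25 CpGs). Col6a1, with 10 CpGs, retained 51.6% (88.6% and 45.7%). At the lower end, Col19a1 retained 15.2% (84.6% and 12.8%, 48 CpGs) and Col22a1, a collagen of tissue junctions, retained 15.2% (84.3% and 12.8%, 32 CpGs). With enzyme-site CpGs included, Col19a1 retained 42.97% and Col22a1 45.5%. Col24a1, a fibrillar collagen of bone that was placed with the restricted genes, went against its class, with 50.3% retained (93.2% and 46.8%, 52 CpGs). Of the high CpGs of Col14a1, 13 of 24 were at 20% or less in Dnmt1-/- MEFs, which set it apart from most other matrix collagens. Col7a1 retained 50.9% of its body methylation but belongs to a class whose other members retained 19.1% to 36.5%.

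The 2 chains of type I collagen could be compared only loosely, since Col1a2 had 4 body CpGs (81.3% and 22.0%). Col3a1 also had 4 (81.7% and 20.6%), and Col9a3 and Col10a1 had 1 each. Type V chains retained 33.3% in Col5a1 (72 CpGs), 43.4% in Col5a2 (5 CpGs) and 32.0% in Col5a3 (13 CpGs). The low value of Col1a1 was therefore not shared by the fibrillar genes measured beside it. Among other chains of 1 collagen type, Col4a1 retained 43.5% and Col4a2 51.6%, Col4a3 22.2% and Col4a4 19.1%, Col8a1 51.0% and Col8a2 24.4%, and Col11a1 38.3% and Col11a2 23.7%. With enzyme-site CpGs included Col4a3 retained 45.04% and Col4a4 48.1%, in the reverse order, Col8a2 52.9% beside 62.5% in Col8a1, and Col11a2 42.3% beside 53.8% in Col11a1.

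The retained share of each body was set beside that of the surrounding sequence. In 27 of 33 genes with enough CpGs the body retained more than the sequence within 50 kb on either side, and in 6 it retained less, Col1a1 among them. Over all genes the body retained more in 56.9% of 11435. The median flank retained 37.4% around other matrix collagens and 17.7% around restricted collagens, the same order as in their bodies. Flanks of the classes between them, at 33.9% for epithelial, 32% for fibrillar and 20.9% for cartilage collagens, did not follow the order of their bodies. Around Col24a1 the flanks retained 48.5%, close to its body. The part of the surrounding sequence in the body values was not tested.

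A few 1 kb tiles inside collagen bodies averaged 20% or less in Dnmt1+/+ MEFs. In Col27a1, the tile at chr4:62876001-62877000 had 37 CpGs at 1.06% and 0.671%, beside another annotated transcript start 1.43 kb inside the gene. In Col8a2, the tile at chr4:125978001-125979000 had 24 CpGs at 3.21% and 0.455%, within 1 kb of a transcript start 13.7 kb inside the gene, and the tile at chr4:125974001-125975000 had 14 CpGs at 9.55% and 1.06%. Of these CpGs, 2 of the 24 and 5 of the 14 were called lower. The 19 CpGs around this internal Col8a2 start averaged 7.39% and 0.533%, below the 35.3% and 7.14% at the annotated gene start. In Col2a1, the tiles at chr15:97832001-97833000 and chr15:97833001-97834000 had 10 CpGs each, at 5.33% and 2.05% and at 6.94% and 6.33%. The tile at chr4:62877001-62878000 in Col27a1 had 9 CpGs at 9.72% and 1.87%, with 1 called lower. No collagen body tile was higher by 10 points in Dnmt1-/- MEFs.

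Not every internal start was that low. In Col18a1, the source of endostatin, a transcript start 52.9 kb inside the gene had 5 CpGs at 88.4% in Dnmt1+/+ and 49.4% in Dnmt1-/- MEFs. At a start 41.4 kb inside Col6a3, a collagen VI chain, 7 CpGs averaged 97.9% and 46.8%. Exon CpGs of all collagen bodies averaged 85.5% and 33.4% (477 CpGs), and intron CpGs 79.1% and 26.8% (1017 CpGs). Over all genes the order of these CpG means in Dnmt1+/+ MEFs was the reverse. Exons averaged 61.1% and 26.3% there, and introns 66.6% and 24.2%. Of 27 genes with at least 5 of each, the exon mean was the higher in 21 in Dnmt1+/+ and in 14 in Dnmt1-/- MEFs. Over all genes it was the higher in 2884 and 2863 of 4739, so gene by gene the order was not reversed. The median exon minus intron difference in Dnmt1+/+ MEFs was 3.18 points over all genes and 4.085 points over the 27.

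The promoters of genes that modify, fold, process, crosslink or bind collagen were mostly unmethylated. Of 36 such genes 29 had at least 5 CpGs, and 26 of these differed by less than 10 points, as did 84.7% of the promoters of all genes. Crtap, part of the prolyl 3-hydroxylation complex, was lower (13.5% and 2.08%, 36 CpGs), as was Ddr1, a collagen receptor of epithelia (42.2% and 23.0%, 6 CpGs). Loxl2, a lysyl oxidase that crosslinks collagen, was higher (2.91% and 19.1%, 27 CpGs). The median of the 29 was 2.58% in Dnmt1+/+ and 1.48% in Dnmt1-/- MEFs. Of 7 fibroblast markers the 3 with enough CpGs lay at 2.87% or less in both libraries (Vim, Pdgfra and Fn1). Thy1, with 4 CpGs, was among those with too few and averaged 14.5% and 32.3%, with 2 CpGs called higher. Pdgfrb, with 3 CpGs, averaged 0.901% and 0%, and Prrx1 and S100a4 had no measured CpG outside the enzyme sites. Of 5 epithelial markers Epcam (29.1% and 12.4%) and Krt18 (43.3% and 32.3%) were lower by at least 10 points, beside 14.6% of all promoters. The other 3, Cdh1 (11.35% and 7.16%), Cldn7 (8.04% and 1.92%) and Esrp1 (4.40% and 2.97%), differed by less than 10 points.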

How the data were processed

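Per the labels, genomic DNA of 2 MEF cultures was bisulfite-converted and sequenced (RRBS), 1 library per genotype, and processed with Bismark (version and conversion rate not given in the sources used here) on mm9. The deposited depth is the authors' count of methylation calls per CpG, both at least 10, and the deposited percent is the authors' share of methylated calls. All 1790826 positions fell on a CG of NCBIM37. Percent times depth gave whole numbers within 0.01 at 100% of CpGs, which returned the methylated calls.

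CpGs within 1000 bp of the GENCODE vM1 gene start were promoter CpGs and the rest of the gene was its body. Gene values are means of CpGs outside CCGG and TCGA, for regions with at least 5. Fisher's exact test, two-sided, was run on each CpG (p-values adjusted by Benjamini-Hochberg across the whole table, called below 0.05) and tested on simulated data. Intervals are 95% Wilson intervals, and limits at 0 methylated calls are 3 calls. Both cover counting error only, since the reads carry no molecular identifiers and may repeat a molecule.

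The genes were taken by name, and the set, its classes and the other lists were chosen with earlier results of these data known. Named genes were every promoter with at least 5 CpGs (or its class range), the 3 bodies with at least 20 CpGs that retained most and the 3 that retained least, body tiles at 20% or less in Dnmt1+/+ or higher by 10 points, CpGs called higher, and pathway genes changed by 10 points. Other genes were chosen after their values were seen. Printed sequences are the promoter stretch (300 bases) or body stretch (shorter) with most measured CpGs and at most 30 bases of UTR. Tools were scipy 1.17.1, numpy 2.4.6, numba 0.67.0 and pandas 2.3.3 in Python 3.11.15, with plots from matplotlib 3.10.9. The histone and expression data were not used here.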

Additional observations from a re-analysis of the deposited data

How the results depend on the processing

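No paired analysis was possible because only 1 Dnmt1+/+ and 1 Dnmt1-/- library exist here, and for the same reason none could be left out. Using all CpGs, enzyme sites included, moved the fibrillar promoter medians to 30.1% in Dnmt1+/+ and 24.99% in Dnmt1-/- MEFs, and the cartilage and epithelial medians to 34.1% and 23.1%. It moved the median body share retained to 54.3% (59.1% in other matrix and 47.5% in restricted collagens), the body CpGs called lower to 2142 and those called higher to 1. A depth of at least 20 gave fibrillar medians of 20.4% and 5.97%, cartilage and epithelial medians of 21.3% and 7.61%, and retained shares of 31.3% over all bodies and 43.4% over other matrix collagens. Promoters of 500 bp either side left 4 genes lower by 10 points, with fibrillar medians of 3.17% and 5.82% and a Dnmt1+/+ cartilage and epithelial median of 14.2%. In the narrower fibrillar promoters, which drop Col1a2 and Col5a2, the Dnmt1-/- median was the higher. Pooled calls gave 22.2% and 8.08% for cartilage and epithelial promoters. The start of the transcript with the longest coding sequence gave a Dnmt1+/+ fibrillar median of 13.6%, and the Col18a1 promoter difference changed from 4.13 to -39.04 points, because that start lies 52.9 kb inside the gene. A change of at least 25 points left 3 lower promoters. Bodies with at least 20 CpGs gave a median of 35.4%, and 22.4% for restricted collagens. Promoter CpGs called lower numbered 7 after thinning to 10 calls, and body CpGs 578, so depth limits these counts. CpGs called higher in promoters numbered 3 at an adjusted p under 0.01, 1 with a difference of at least 25 points and 0 after thinning, and the 7 are therefore the least stable calls here. The class medians of body shares and the count over 22 separate windows were chosen after seeing the data. Other matrix collagens retained more than restricted ones under every alternative run. Promoter differences also changed sign for Col4a1, Col4a2, Col12a1, Col13a1, Col15a1 and Col25a1 under 1 or more alternatives, all of them 1.56 points or less in size as reported. No body difference changed sign.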
